A study of Drosophila melanogaster with 8 samples.

Results

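The transcripts described here are the small nucleolar RNAs (snoRNAs) counted in eye discs of Drosophila melanogaster larvae in the third instar. Members are all genes whose FlyBase identifier maps to a symbol starting with snoRNA: and whose counts summed to at least 20 over the 8 libraries, so they were selected on a measured value, the summed count. The tables hold 15682 genes, of which 243 are snoRNA genes, and 217 of these met the minimum. Just inside it were snoRNA:MeU6-C68 with 26 reads in all and snoRNA:Me18S-A1806 with 28. Just outside were snoRNA:Or-CD11a with 19 and snoRNA:Me18S-A469 with 17.

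snoRNAs are short RNAs that work in the nucleolus as parts of RNA-protein particles. Box H/ACA snoRNAs pair with ribosomal or spliceosomal RNA and direct the enzyme Nop60B (dyskerin in mammals) to turn a chosen uridine into pseudouridine, while box C/D snoRNAs direct Fib (fibrillarin) to methylate the ribose of a chosen nucleotide. In flies most are released from introns of host genes, many of which encode ribosomal proteins, and a group of hosts named Uhg makes RNAs whose introns carry snoRNAs. Fly H/ACA snoRNAs often occur as tandem copies within a host, which share the target site in their names.

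The study compared 4 stocks raised at 25 °C, with 2 biological replicates each and 30 to 50 discs in a sample. They are the wild-type strain Canton S, the stock mir-11 KO(w-), here the KO stock, and a pair of stocks, RMCE-1 and RMCE-2, both labelled mir-11~998. The sources used here do not say what the RMCE stocks carry at the microRNA locus, what their parental strains were, or whether each is a single line. Strain background and edited locus cannot be told apart in any comparison with Canton S. RNA was depleted of ribosomal RNA and read as single ends of 50 bp, and the fragment sizes kept are not stated in those sources. In whole discs fewer cells of a type and less RNA per cell cannot be told apart.

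Total counts per library ran from 11929158 to 19670470. The 8 eye disc markers ey, toy, so, eya, dac, gl, ato and elav were detected and summed to between 1140 and 1340 CPM, counts scaled to library size with TMM factors. Canton S replicate 1 and RMCE-1 replicate 2 were left out together in an alternative run. Below they are named the 2 libraries apart, or the pair that stood apart, as a label only. In RMCE-1 replicate 2 the 6 Hsp70 heat-shock genes summed to 4160 CPM and the 6 salivary glue genes to 3950 CPM. Replicate 1 of that stock had 9.29 CPM of glue genes. The Canton S libraries had 1530 and 817 CPM of glue genes, the KO libraries 156 and 193, and both RMCE-2 libraries under those of KO. In RMCE-2 the Hsp70 sums were 722 and 91.7 CPM. The 6 fat body genes summed to between 47.8 and 7400 CPM, both in RMCE-1, and to 823 and 584 CPM in the Canton S libraries. The Hsp70, glue and fat body sums thus give grounds for setting RMCE-1 replicate 2 apart. For Canton S replicate 1 they give none of like size, and whether it stood apart was not tested. For the 5 hemocyte genes the sums in CPM were 363 and 541 for Canton S, 267 and 332 for KO, 298 and 333 for RMCE-1, and 181 and 169 for RMCE-2. Against Canton S Pxn was called lower in KO and RMCE-2, eater lower in RMCE-2 and NimC1 higher in KO. The part of these lists in the results was not tested, and calls are given below with the libraries whose removal ended them.

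By name the members fall into 105 Psi genes for pseudouridylation, 58 Me genes for methylation, 9 orphans (Or) with no target in the name, 18 with U or snR names and 27 named after a host gene, a position or a number. Summing copies that share a target gave 50 Psi guides, of which 18 name a site in 18S ribosomal RNA and 32 a site in 28S. Likewise there were 43 Me guides, 12 to 18S, 29 to 28S and 2 to the spliceosomal RNA U6. Copies were common among Psi guides: 19 had at least 2 and together held 74 of the 105 Psi genes. In the Ensembl 115 annotation of BDGP6, possibly another build than that of the counts, 204 members lie within a gene on their own strand. These 70 hosts include 25 genes named for ribosomal proteins, with 61 members, and 7 Uhg genes, with 41. The largest clusters were in Arpc2 with 17 members, Uhg1 with 16, dom with 15 and RpS5a with 14. Reads of an unspliced host RNA that cover a snoRNA would be counted with it, and reads of near-identical copies may have gone to another copy. How reads with several matches were treated, and which strand setting was used, is unknown from those sources.

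All members together took 0.593 ± 0.0464% of counts in Canton S (SD, n = 2), 0.638 ± 0.0178% in KO, 0.639 ± 0.0158% for RMCE-1 and 0.576 ± 0.0415% for RMCE-2. The Canton S libraries stood at 0.5597% and 0.6253%, and those of KO at 0.6253% and 0.6505%. Those of RMCE-1, at 0.6274% and 0.6498%, lay just above Canton S. Those of RMCE-2, at 0.6058% and 0.5471%, lay within or below the Canton S range and below KO and RMCE-1. These differences were not tested. Psi genes made up most of the member counts, with 0.361 ± 0.0315% in Canton S, while Me genes took 0.00723 ± 0.000481%. The median Psi gene was 140 bases long and the median Me gene 77.5, with median summed counts of 1330 and 140 reads. Per length Psi genes were also higher, at a median of 60.5 CPM per kb in Canton S beside 13.4 for Me genes. These levels describe what the libraries retained, and loss of short RNAs from them was not tested.

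The highest member per length in Canton S was snoRNA:Psi28S-3342, at 2560 CPM per kb (2320 and 2800 in the libraries). snoRNA:Tudor-SN-a, within the gene of the Tudor staphylococcal nuclease, followed at 2290 (2180 and 2390). Next came snoRNA:Psi18S-1820 at 2110 (1960 and 2260), whose host Nop60B encodes the pseudouridine synthase itself. Each library gave these genes in this order, though the ranges of neighbours overlapped, and with 2 libraries the order is not firm. snoRNA:Psi18S-1854c and snoRNA:Psi28S-291 both stood at 1820 CPM per kb. The genes snoRNA:U3:54Ab and snoRNA:U3:54Aa, at 1800 and 1790 CPM per kb, encode U3, a box C/D RNA that acts in cleavage of the ribosomal RNA precursor rather than in its modification. The orphans snoRNA:Or-aca5 and snoRNA:Or-aca4 stood at 1360 and 1360 CPM per kb, snoRNA:Psi18S-176 at 1140 and the lowest member, snoRNA:Edc3-a, at 1.62. Among these, snoRNA:Psi28S-3342 and snoRNA:Or-aca4 were called in a comparison.

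Stocks were compared with the edgeR quasi-likelihood test on raw counts over all genes, and a gene was called at a Benjamini-Hochberg adjusted p under 0.05. Of the members 205 passed the low-count filter, 102 of them Psi and 51 Me genes, and the 12 that did not had 26 to 59 reads in all. In the KO stock against Canton S 21 of the 205 were called (10.2%, beside 4.75% of all genes tested). Of these 11 were higher (2.37% of all genes) and 10 lower (2.39%). For RMCE-1 17 were called against Canton S (8.29%, beside 6.06%), 11 of them higher (2.85%) and 6 lower (3.22%). For RMCE-2 17 were called (8.29%, beside 3.6%), 6 of them higher (2.0%) and 11 lower (1.6%). The share called was thus about 2 times that of all genes for KO and RMCE-2 and closer to it for RMCE-1, and whether it differs was not tested.

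Fewer members separated the edited stocks from each other. RMCE-1 against KO gave 1 call (0.488%, beside 0.352% of all genes). RMCE-2 against KO gave 3 (1.46%, beside 0.578%) and RMCE-2 against RMCE-1 gave 5 (2.44%, beside 1.68%). The comparisons with Canton S share its libraries, and with the 2 libraries apart left out they gave 12, 8 and 9 calls among 209 tested members. The share of all genes called in that run was not computed, so the drop cannot be read as particular to snoRNAs. In all 25 members were called somewhere, each in a comparison with Canton S, and 180 tested members never. Against Canton S 12 were called in all 3 stocks, 6 higher and 6 lower. A further 6 were called in exactly 2 stocks and 7 in exactly 1. Like counts were not made for all genes, so this overlap cannot be read as particular to snoRNAs.

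**Figure D1:**
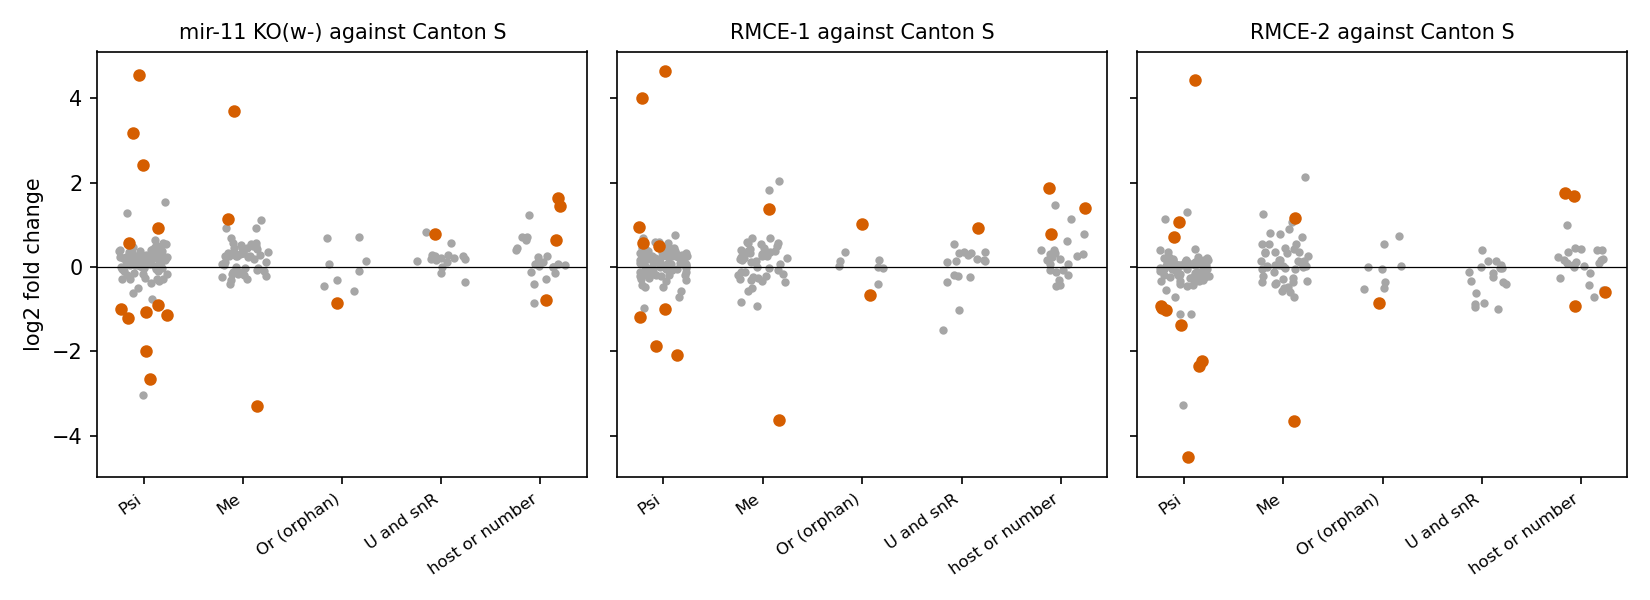
log2 fold change against Canton S (vertical axis, positive where above Canton S) of the 205 tested snoRNA genes by kind of name, one panel per stock; orange points are called at an edgeR adjusted p under 0.05, grey points are the rest, spread sideways at random. Most points lie near 0, and Psi18S-1377a lies highest, at 4.54, 4.65 and 4.44.

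Of the 25 called members 12 lay in 4 hosts, with 4 in RpS7 on 3R and 4 in Arpc2 on 2L, so counts by chromosome arm are not independent. The called members were 6 of 31 members on arm 2L, 7 of 79 on 2R, 5 of 40 on 3L, 4 of 38 on 3R and 3 of 29 on X. These totals include members that did not pass the low-count filter. Shares of all genes called by arm were not computed, so no arm can be said to stand out. The microRNAs of the edited locus lie within E2f1 on 3R. The member nearest to that gene, snoRNA:CG31191-a, was 707 kb away and was not called (KO log2 fold change 1.23, SE 0.37, edgeR adjusted p = 0.119). The nearest called member was 8550 kb away.

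As a group the members lay slightly above Canton S in KO and RMCE-1. Their median log2 fold change was 0.19 in KO and 0.18 in RMCE-1, beside 0.01 for all genes in both, and 0.01 in RMCE-2, beside 0.00. With the 2 libraries apart left out the medians were 0.08, 0.12 and -0.08, so the sign turned in RMCE-2. Replicates of a stock were compared over genes above a minimum mean CPM, 94 of them snoRNAs. They differed by a median absolute log2 value of 0.23, 0.10, 0.15 and 0.18 over these snoRNAs in Canton S, KO, RMCE-1 and RMCE-2. Over all genes above that minimum the values were 0.09, 0.07, 0.14 and 0.12, so the gap was widest in Canton S and small in RMCE-1. Members with fewer reads are not covered by these values. The median SE of the KO log2 fold change was 0.17 for Psi and 0.39 for Me genes, beside 0.13 for all genes, so changes of Me genes were harder to detect at this depth.

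By class, Psi genes gave 12 of the 21 KO calls, 9 of the 17 in RMCE-1 and 10 of the 17 in RMCE-2. These were 11.8%, 8.82% and 9.8% of 102 tested. Me genes gave 3, 2 and 2, or 5.88%, 3.92% and 3.92% of 51 tested. The shares of all genes were 4.75%, 6.06% and 3.6%. Of 71 tested Psi genes with a sister copy, KO gave 4 called higher and 6 lower. RMCE-1 gave 4 and 3, and RMCE-2 3 and 6. Of 31 without one, KO and RMCE-1 each gave 1 higher and 1 lower, and RMCE-2 gave 0 and 1. Shares of all genes were 2.37% higher and 2.39% lower in KO, 2.85% and 3.22% for RMCE-1, and 2.0% and 1.6% for RMCE-2. With copies summed 90 guides were tested, 50 of them Psi and 40 Me. Against Canton S Psi guides gave 3, 3 and 2 calls (6.0%, 6.0% and 4.0%) in KO, RMCE-1 and RMCE-2. Me guides gave 3, 2 and 2 (7.5%, 5.0% and 5.0%), so the higher share of Psi genes was not seen per guide. Both classes together, KO against Canton S gave 6 (6.67%, beside 4.44% of all rows of that fit), RMCE-1 5 (5.56%, beside 6.02%) and RMCE-2 4 (4.44%, beside 3.53%). RMCE-1 and RMCE-2 each differed from KO in 1 guide (1.11%, beside 0.354% and 0.518% of all rows) and from each other in 2 (2.22%, beside 1.65%).

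The guide Psi18S-1377, to 18S ribosomal RNA, had the largest changes of single copies. Its 5 copies follow each other over 908 bp within RpS7, a gene of the small ribosomal subunit at 3R:30206447-30209020 on the minus strand. snoRNA:Psi18S-1377a had 33 and 50 reads in Canton S, 946 and 837 in the KO stock, 849 and 627 for RMCE-1 and 659 and 774 for RMCE-2. Scaled to library size, every other library held at least 43.1 CPM while Canton S held at most 2.68. The means were 2.16 ± 0.748 CPM in Canton S and 50.1 ± 0.627, 54.0 ± 0.464 and 46.8 ± 5.2 in KO, RMCE-1 and RMCE-2. It rose by 4.54 (SE 0.20), 4.65 (SE 0.20) and 4.44 (SE 0.20) on the log2 scale (edgeR adjusted p = 0.000515, 0.000629 and 0.000827).

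Its sister copies went the other way. snoRNA:Psi18S-1377b had 1421 and 1618 reads in Canton S, 332 and 361 in the KO stock, 272 and 230 for RMCE-1 and 235 and 278 for RMCE-2. It fell from 78.5 ± 11.9 CPM by 2.00 (SE 0.15), 2.08 (SE 0.15) and 2.23 (SE 0.15) on the log2 scale (edgeR adjusted p = 0.00186, 0.00153 and 0.00137). In CPM no Canton S library overlapped another stock for this copy or for copies c and e. snoRNA:Psi18S-1377e, with 1652 and 1937 reads in Canton S, 811 and 760 in the KO stock, 621 and 480 for RMCE-1 and 495 and 606 for RMCE-2, fell by 1.07 (SE 0.12), 1.20 (SE 0.12) and 1.37 (SE 0.12) (edgeR adjusted p = 0.00558, 0.00403 and 0.00296). snoRNA:Psi18S-1377c, with 375 and 403 reads in Canton S, 175 and 180 in the KO stock, 153 and 121 for RMCE-1 and 142 and 172 for RMCE-2, fell by 1.00 (SE 0.13), 0.99 (SE 0.13) and 0.97 (SE 0.13) (edgeR adjusted p = 0.0097, 0.0105 and 0.0116). snoRNA:Psi18S-1377d, the most abundant copy, was not called, with 108 ± 23.5 CPM in Canton S and 88.5 ± 12.2, 94.8 ± 17.1 and 80.1 ± 6.98 in the others. Calls of copies a and b held in every alternative run, and those of e in both RMCE stocks. The KO calls of c and e were lost without KO replicate 1 (edgeR adjusted p = 0.117 and 0.0898) or 2 (0.0822 and 0.0799). The RMCE-2 call of c was lost without RMCE-2 replicate 1 (0.0651) or 2 (0.08) or Canton S replicate 2 (0.0529), and its RMCE-1 call without the pair that stood apart (0.0615).

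Copy a made up 0.703 ± 0.121% of the guide's reads in Canton S and 23.7 ± 2.12%, 24.9 ± 2.46% and 24.6 ± 0.428% in KO, RMCE-1 and RMCE-2. Copy b made up 26.1 ± 0.752% in Canton S and 9.2 ± 0.517%, 8.52 ± 0.0267% and 8.82 ± 0.108%. The sum of the 5 copies stood at 302 ± 54.5 CPM in Canton S and 212 ± 16.4, 218 ± 19.7 and 190 ± 17.8 CPM. It was not called, at log2 values of -0.51 (SE 0.14), -0.47 (SE 0.14) and -0.67 (SE 0.14) against Canton S and edgeR adjusted p of 0.101, 0.109 and 0.0573. The host RpS7 was level, at 1460 ± 71.4, 1480 ± 13.3, 1460 ± 73.3 and 1420 ± 48.1 CPM in the 4 stocks. A change in a copy and a move of reads between copies cannot be told apart in these counts.

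**Figure D2:**
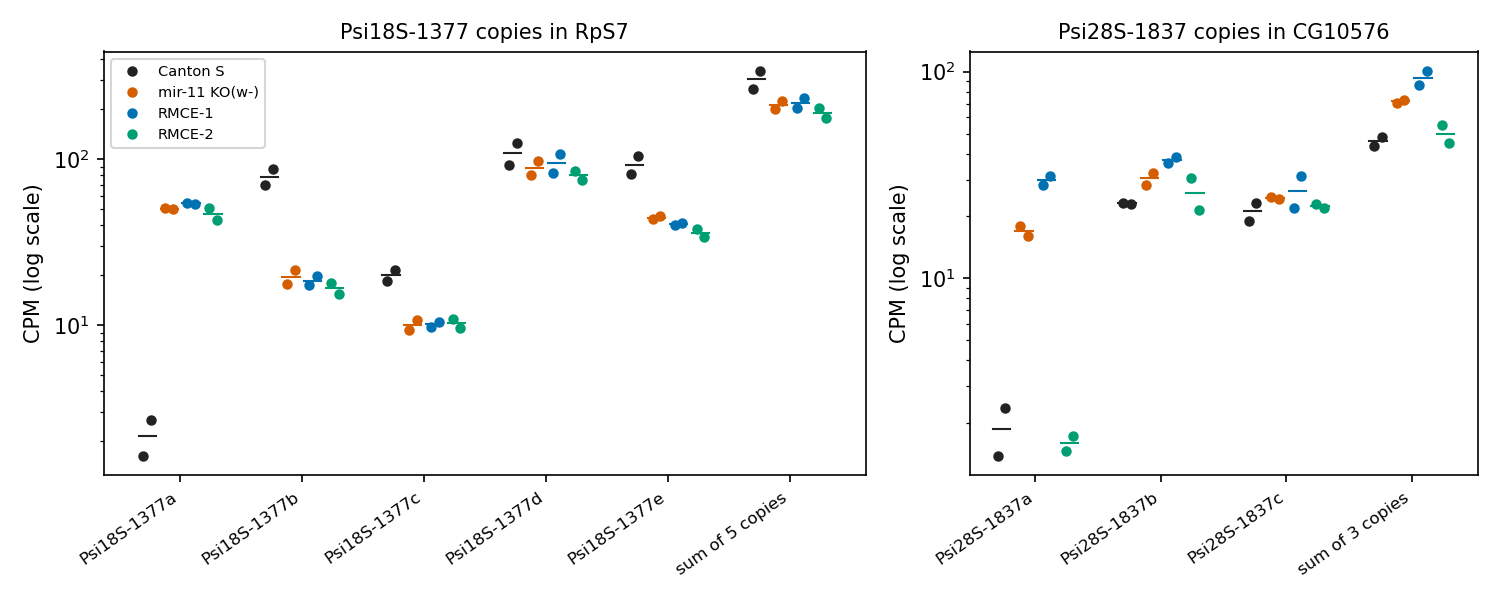
CPM (vertical axis, log scale) of each copy and of the summed guide, for Psi18S-1377 in RpS7 (left) and Psi28S-1837 in CG10576 (right); points are libraries, 2 per stock, and bars are stock means. Copy 1377a stands at 2.16 CPM in Canton S and far higher elsewhere, copies b, c and e lie lower in the edited stocks, and 1837a is high in KO and RMCE-1, at 16.9 and 29.9 CPM.

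Psi28S-1837, a guide to 28S ribosomal RNA with 3 member copies in CG10576, separated the RMCE stocks. snoRNA:Psi28S-1837a, at 3L:5764258-5764394 on the minus strand, had 28 and 44 reads in Canton S, 335 and 269 in the KO stock, 442 and 367 for RMCE-1 and 19 and 31 for RMCE-2. In CPM the RMCE-2 libraries (1.46 and 1.73) lay within the range of Canton S (1.38 and 2.36) and far under KO and RMCE-1, which held at least 16.0. Against Canton S it rose by 3.18 (SE 0.23) in KO and 4.0 (SE 0.24) in RMCE-1 on the log2 scale (edgeR adjusted p = 0.00183 and 0.000874), and both calls held in every alternative run. In RMCE-2 the log2 fold change was -0.22 (SE 0.26, edgeR adjusted p = 0.724). Tested directly, RMCE-2 was lower than RMCE-1 by 4.21 (SE 0.25) (edgeR adjusted p = 0.00122), which held in every alternative, and lower than KO by 3.40 (SE 0.24) (0.00483). The latter call was lost on leaving out any 1 library of KO or RMCE-2 (0.0611 to 0.104).

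The other copies were not called. Their largest log2 fold changes against Canton S were in RMCE-1, 0.69 (SE 0.17) for snoRNA:Psi28S-1837b (edgeR adjusted p = 0.0594) and 0.33 (SE 0.17) for snoRNA:Psi28S-1837c (0.311). The summed guide was called, unlike that of Psi18S-1377. It stood at 46.1 ± 3.53 CPM in Canton S, 71.8 ± 1.32 in KO, 93.7 ± 10.6 in RMCE-1 and 49.9 ± 7.05 in RMCE-2. It rose by 0.64 (SE 0.12) in KO and 1.02 (SE 0.12) in RMCE-1 on the log2 scale (edgeR adjusted p = 0.0314 and 0.00701), and RMCE-2 was lower than RMCE-1 by 0.91 (SE 0.12) (0.021). The KO call was lost on leaving out any 1 library of KO or Canton S (0.0743 to 0.24), and the RMCE-1 call without Canton S replicate 1 (0.0527). The call between the RMCE stocks was lost without RMCE-1 replicate 2, either RMCE-2 library or either KO library (0.0689 to 0.121). CG10576 was level, at 413 ± 9.33, 420 ± 12.1, 414 ± 20.5 and 415 ± 1.8 CPM.

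In Arpc2, which encodes a subunit of the actin-nucleating Arp2/3 complex, copies of Psi18S-525 and Psi18S-640 lie interspersed over 3716 bp of 2L, 17 in all. snoRNA:Psi18S-640a had 32 and 32 reads in Canton S, 4 and 5 in the KO stock, 15 and 15 for RMCE-1 and 1 and 1 for RMCE-2. It fell in KO by 2.66 (SE 0.42) on the log2 scale (edgeR adjusted p = 0.0182) and was lower in RMCE-2 (0.00704), where Canton S held 25.5 times the level (exact 95% counting interval 6.77 to 215). RMCE-2 was also lower than RMCE-1 (edgeR adjusted p = 0.0228). snoRNA:Psi18S-640b, the most abundant copy, had 161 and 165 reads in Canton S, 88 and 72 in the KO stock, 124 and 79 for RMCE-1 and 55 and 72 for RMCE-2. It fell by 0.90 (SE 0.17) in KO and 1.03 (SE 0.17) in RMCE-2 (edgeR adjusted p = 0.031 and 0.0243). snoRNA:Psi18S-525d fell in KO by 1.14 (SE 0.24) (edgeR adjusted p = 0.0479) and had a like value in RMCE-2 that was not called (-1.12, SE 0.24, 0.0578). snoRNA:Psi18S-525c fell in RMCE-2 by 2.34 (SE 0.46) (edgeR adjusted p = 0.0444). In RMCE-1 none of these differed from Canton S by the test, with log2 fold changes from -0.56 to -0.15.

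The changes kept their sign in every alternative run, with log2 fold changes in KO of -2.91 to -2.45 for 640a and -1.31 to -0.99 for 525d. Their calls did not all hold. All 3 KO calls were lost on leaving out any 1 library of Canton S or KO (edgeR adjusted p = 0.0717 to 0.286), and that of 525d also with DESeq2 (0.0724). In RMCE-2 the call of 640a was lost without RMCE-2 replicate 1 (0.0783) or 2 (0.0755), and that of 640b on leaving out any 1 library of Canton S or RMCE-2 (0.0867 to 0.127). That of 525c was lost without RMCE-2 replicate 1 (0.162) or either Canton S library (0.1 to 0.156). The call between the RMCE stocks was lost without RMCE-1 replicate 2 (0.101) or on leaving out any 1 library of RMCE-2, Canton S or KO (0.0573 to 0.178).

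Along the cluster the first 7 copies summed to 19.1 and 20.8 CPM in the Canton S libraries, 9.03 and 8.72 in KO, 17.2 and 16.8 for RMCE-1 and 7.2 and 7.75 for RMCE-2. The last 10 summed to 11.7 and 15.5, 15.3 and 17.7, 12.7 and 14.8 and 14.8 and 12.5 CPM. KO and RMCE-2 thus lay low in the first copies and within or close to the Canton S range in the sum of the last. This division was chosen after the values were seen and so not tested. The last copies did not move alike. Mean CPM of snoRNA:Psi18S-525i was 0.638 in Canton S, 1.56 in KO, 0.524 in RMCE-1 and 1.44 in RMCE-2, with no call. snoRNA:Psi18S-640f, given below, was likewise higher in KO and RMCE-2. For snoRNA:Psi18S-525j the means were 3.47, 3.06, 3.19 and 2.98 CPM in the same order. As a guide, Psi18S-640 stood at 16.0 ± 1.92 CPM in Canton S and 9.66 ± 0.443 in RMCE-2, where it fell by 0.73 (SE 0.12) (edgeR adjusted p = 0.0255). The call ended on leaving out any 1 library of Canton S or RMCE-2 (0.0509 to 0.183). Psi18S-525, with 11 copies, was not called in any comparison with Canton S (edgeR adjusted p = 0.236, 0.724 and 0.0737). Its sum includes snoRNA:Psi18S-525k, which is not among the 17 copies in Arpc2. Within the cluster, snoRNA:Psi18S-525b had 27 and 38 reads in Canton S and 3 and 4 in the KO stock. RMCE-1 had 13 and 19, and RMCE-2 4 and 1. That copy had the lowest log2 fold changes of the tested 525 copies in KO (-3.04) and RMCE-2 (-3.27) but was not called. Arpc2 itself ran from 112 ± 6.97 CPM in RMCE-2 to 124 ± 1.67 CPM in Canton S.

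**Figure D3:**
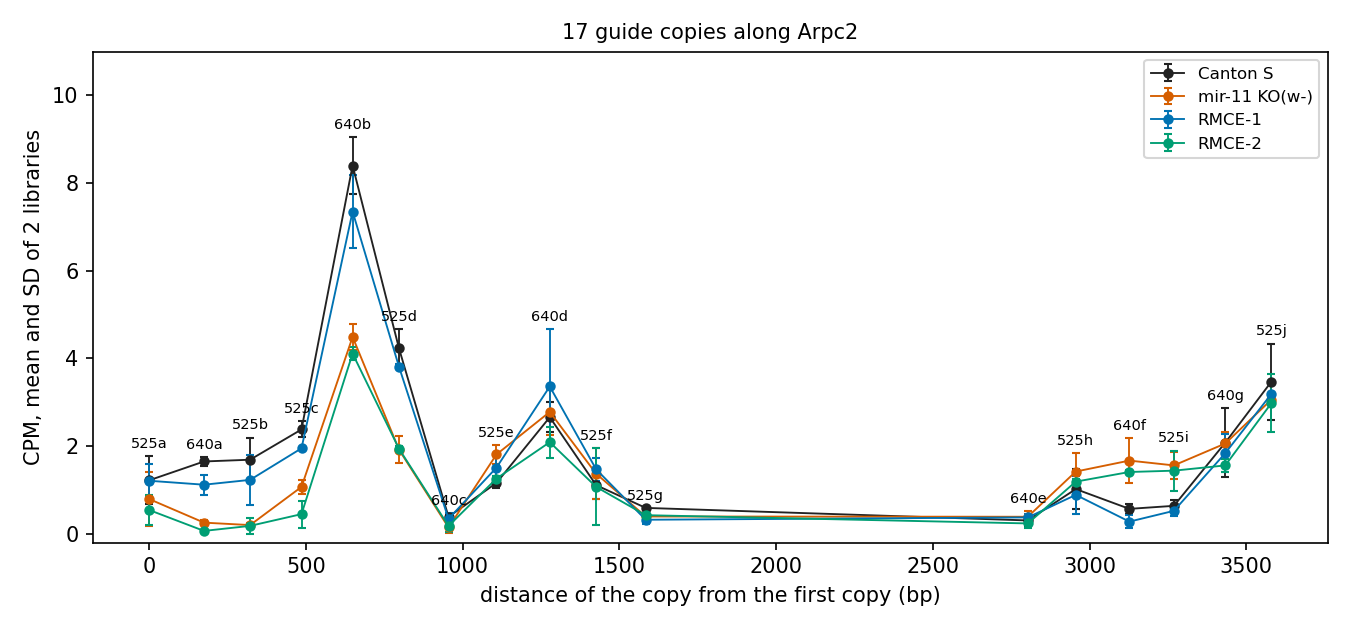
Mean CPM of each of the 17 guide copies in Arpc2 (vertical axis, error bars SD of 2 libraries) by distance from the first copy in bp (horizontal axis), one line per stock. Over the first 7 copies KO and RMCE-2 run below Canton S and RMCE-1, with 640b at 4.49 and 4.11 CPM in the former, and further on the lines cross.

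Psi28S-1175 has 3 copies side by side in RpS16, a gene of the small ribosomal subunit on 2R. snoRNA:Psi28S-1175a had 128 and 105 reads in Canton S, 222 and 184 in the KO stock, 181 and 132 for RMCE-1 and 196 and 183 for RMCE-2. In CPM the Canton S libraries (6.31 and 5.64) lay under all 6 others, which held at least 10.2. It rose by 0.93 (SE 0.19), 0.94 (SE 0.19) and 1.07 (SE 0.19) on the log2 scale (edgeR adjusted p = 0.0432, 0.0389 and 0.032). snoRNA:Psi28S-1175b rose by 0.57 (SE 0.10), 0.57 (SE 0.10) and 0.71 (SE 0.10) (edgeR adjusted p = 0.0267, 0.0261 and 0.0141). The most abundant copy, snoRNA:Psi28S-1175c at 46.5 ± 8.77 CPM in Canton S, was not called, and neither was the summed guide (edgeR adjusted p = 0.543, 0.436 and 0.219). All 6 calls of copies a and b were lost without Canton S replicate 1 (0.101 to 0.153), without either KO library (0.0544 to 0.269) and without the pair that stood apart (0.0894 to 0.182). Those in RMCE-1 were also lost without either RMCE-1 library (0.0716 to 0.102) and those in RMCE-2 without RMCE-2 replicate 1 (0.0769 to 0.106). Canton S replicate 2 ended all but that of b in RMCE-2 (0.117 to 0.148 for a, 0.0628 to 0.0629 for b).

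Me28S-C788, a box C/D guide to 28S ribosomal RNA, fell in all 3 stocks. snoRNA:Me28S-C788a, within lncRNA:CR45184 at 3L:827312-827383 on the minus strand, had 83 and 78 reads in Canton S, 11 and 4 in the KO stock, 6 and 3 for RMCE-1 and 4 and 6 for RMCE-2. In CPM every library of the edited stocks held at most 0.588, against at least 4.09 in Canton S. It fell by 3.29 (SE 0.45), 3.64 (SE 0.48) and 3.65 (SE 0.47) on the log2 scale (edgeR adjusted p = 0.0113, 0.01 and 0.00943). snoRNA:Me28S-C788b, with 3 and 10 reads in Canton S, 6 and 8 in the KO stock, 1 and 2 for RMCE-1 and 1 and 11 for RMCE-2, was not tested, and the sum of both copies was called lower in all 3 stocks (edgeR adjusted p = 0.0238, 0.0118 and 0.0211). The KO call of copy a was lost without KO replicate 1 (0.0569) or 2 (0.0943), and that in RMCE-1 without Canton S replicate 1 (0.0508) or RMCE-1 replicate 2 (0.0522). That in RMCE-2 was lost without Canton S replicate 1 (0.0515) or RMCE-2 replicate 1 (0.104) or 2 (0.0768). The calls of the sum were lost without Canton S replicate 1 (0.0527 to 0.0861), and in KO and RMCE-2 also without Canton S replicate 2 or either KO library (0.0701 to 0.23). RMCE-1 replicate 2 and RMCE-2 replicate 1 ended those of their own stocks (0.0577 and 0.0927).

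Opposite changes also met in Usp10 on 3L, which encodes a deubiquitinating enzyme. snoRNA:CG32479-a had 669 and 715 reads in Canton S, 1856 and 2051 in the KO stock, 1335 and 1197 for RMCE-1 and 1728 and 1724 for RMCE-2. It rose by 1.63 (SE 0.19), 1.40 (SE 0.19) and 1.68 (SE 0.19) on the log2 scale (edgeR adjusted p = 0.00947, 0.0143 and 0.00888). Its neighbour snoRNA:CG32479-b, which lies 62.9 kb from snoRNA:Me28S-C788a, had 1378 and 1529 reads in Canton S, 745 and 801 in the KO stock, 785 and 693 for RMCE-1 and 576 and 627 for RMCE-2. It fell by 0.78 (SE 0.16) in KO and 0.93 (SE 0.16) in RMCE-2 (edgeR adjusted p = 0.049 and 0.0336), and was not called in RMCE-1 (-0.45, SE 0.16, 0.161). In CPM the Canton S libraries did not overlap those of the edited stocks for either gene. The host Usp10 stood at 271 ± 21.5, 241 ± 14.8, 247 ± 2.34 and 252 ± 21.3 CPM. The calls of snoRNA:CG32479-a were lost without Canton S replicate 1 (0.0726 to 0.0993), that in KO also without either KO library (0.0589 to 0.0841) and that in RMCE-1 without Canton S replicate 2 (0.0514) or RMCE-1 replicate 2 (0.0691). The KO call of snoRNA:CG32479-b was lost on leaving out any 1 of the 8 libraries (0.054 to 0.309), and the RMCE-2 call on leaving out any 1 library outside RMCE-1 (0.073 to 0.127).

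Among guides with a single copy, snoRNA:Psi28S-2648 was high in KO alone among the 4 stocks. It lies within RpL36A, a gene of the large ribosomal subunit, at 2L:8042189-8042350 on the minus strand, and had 163 and 207 reads in Canton S, 823 and 989 in the KO stock, 191 and 119 for RMCE-1 and 108 and 126 for RMCE-2. In CPM both KO libraries (44.0 and 58.7) lay above the other 6, which held at most 12.2. Against Canton S it rose by 2.42 (SE 0.21) on the log2 scale (edgeR adjusted p = 0.00321), which held in every alternative run. RMCE-1 was lower than KO by 2.19 (SE 0.21) and RMCE-2 by 2.75 (SE 0.22) (edgeR adjusted p = 0.0137 and 0.00891). The former call was lost without either KO library (0.0856 to 0.153), RMCE-1 replicate 2 (0.11) or either RMCE-2 library (0.0512 to 0.0536), the latter on leaving out any 1 library of KO or RMCE-2 (0.0563 to 0.104). RpL36A ran from 832 ± 18.7 CPM in Canton S to 916 ± 27.1 CPM in RMCE-1.

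snoRNA:Psi28S-3342, the most abundant member per length, fell in all 3 stocks. It lies at X:5524302-5524465 on the minus strand, within no annotated gene of that strand, and had 7712 and 8558 reads in Canton S, 3431 and 3043 in the KO stock, 1982 and 1178 for RMCE-1 and 2830 and 4015 for RMCE-2. In CPM the Canton S libraries (380 and 460) lay above all others, which held at most 224. It fell by 1.21 (SE 0.13), 1.88 (SE 0.13) and 0.93 (SE 0.13) on the log2 scale (edgeR adjusted p = 0.00489, 0.00144 and 0.0124), and RMCE-2 was higher than RMCE-1 by 0.95 (SE 0.13) (0.0217). The RMCE-1 call held in every alternative run. That in KO was lost without either KO library (0.0763 to 0.077) and that in RMCE-2 without either RMCE-2 library (0.0777 to 0.113) or either KO library (0.0518 to 0.0532), which enter it through the shared spread. The call between the RMCE stocks was lost without RMCE-1 replicate 2 (0.0591) or on leaving out any 1 library of RMCE-2 or KO (0.0794 to 0.14).

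Further members changed in all 3 stocks. snoRNA:2R:9445205, which names no target, had 88 and 76 reads in Canton S, 234 and 175 in the KO stock, 265 and 164 for RMCE-1 and 191 and 247 for RMCE-2. It rose by 1.44 (SE 0.15), 1.88 (SE 0.15) and 1.75 (SE 0.15) on the log2 scale (edgeR adjusted p = 0.00453, 0.00216 and 0.00285), and its calls held in every alternative run except KO without KO replicate 1 (0.055). snoRNA:Me18S-C1968, a box C/D guide to 18S ribosomal RNA within Swim, had 57 and 65 reads in Canton S, 125 and 120 in the KO stock, 117 and 104 for RMCE-1 and 90 and 128 for RMCE-2. It rose by 1.13 (SE 0.18), 1.38 (SE 0.18) and 1.16 (SE 0.18) (edgeR adjusted p = 0.0194, 0.0105 and 0.0208). Its calls were lost without Canton S replicate 1 (0.0649 to 0.116), those in KO and RMCE-2 also without either KO library (0.0679 to 0.171) and that in RMCE-2 without either RMCE-2 library (0.0851 to 0.105). snoRNA:Or-aca4, an H/ACA orphan, had 4018 and 4545 reads in Canton S, 2236 and 2102 in the KO stock, 2207 and 1605 for RMCE-1 and 1653 and 2150 for RMCE-2. It fell by 0.86 (SE 0.10), 0.67 (SE 0.10) and 0.84 (SE 0.10) (edgeR adjusted p = 0.00642, 0.0144 and 0.00728). For all 3 genes the Canton S libraries did not overlap the others in CPM. The calls of snoRNA:Or-aca4 in KO and RMCE-1 were lost without either KO library (0.0552 to 0.0977), that in RMCE-1 also without RMCE-1 replicate 2 (0.0641) and that in RMCE-2 without either RMCE-2 library (0.0604 to 0.0614).

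Of the U3 genes snoRNA:U3:9B was called. It lies at X:10348125-10348337 on the plus strand and had 677 and 729 reads in Canton S, 1163 and 1048 in the KO stock, 1112 and 767 for RMCE-1 and 545 and 696 for RMCE-2. In CPM the KO and RMCE-1 libraries held at least 62.2, above the most that Canton S and RMCE-2 held, 41.8. It rose by 0.78 (SE 0.09) in KO and 0.92 (SE 0.09) in RMCE-1 on the log2 scale (edgeR adjusted p = 0.00646 and 0.00403). RMCE-2 was lower than KO by 0.63 (SE 0.09) and than RMCE-1 by 0.77 (SE 0.09) (edgeR adjusted p = 0.0481 and 0.0169). The more abundant snoRNA:U3:54Ab was not called, at 378 ± 45.4, 450 ± 4.11, 475 ± 40.4 and 369 ± 30.0 CPM in the 4 stocks, and near-identical U3 genes may share reads. The RMCE-1 call of snoRNA:U3:9B held in every alternative run, and that in KO was lost without either KO library (0.0841 to 0.0885). The call between RMCE-2 and KO was lost on leaving out any 1 library outside Canton S (0.0553 to 0.381), and that between the RMCE stocks on leaving out any 1 library of RMCE-2 or KO (0.0703 to 0.125).

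**Figure D4:**
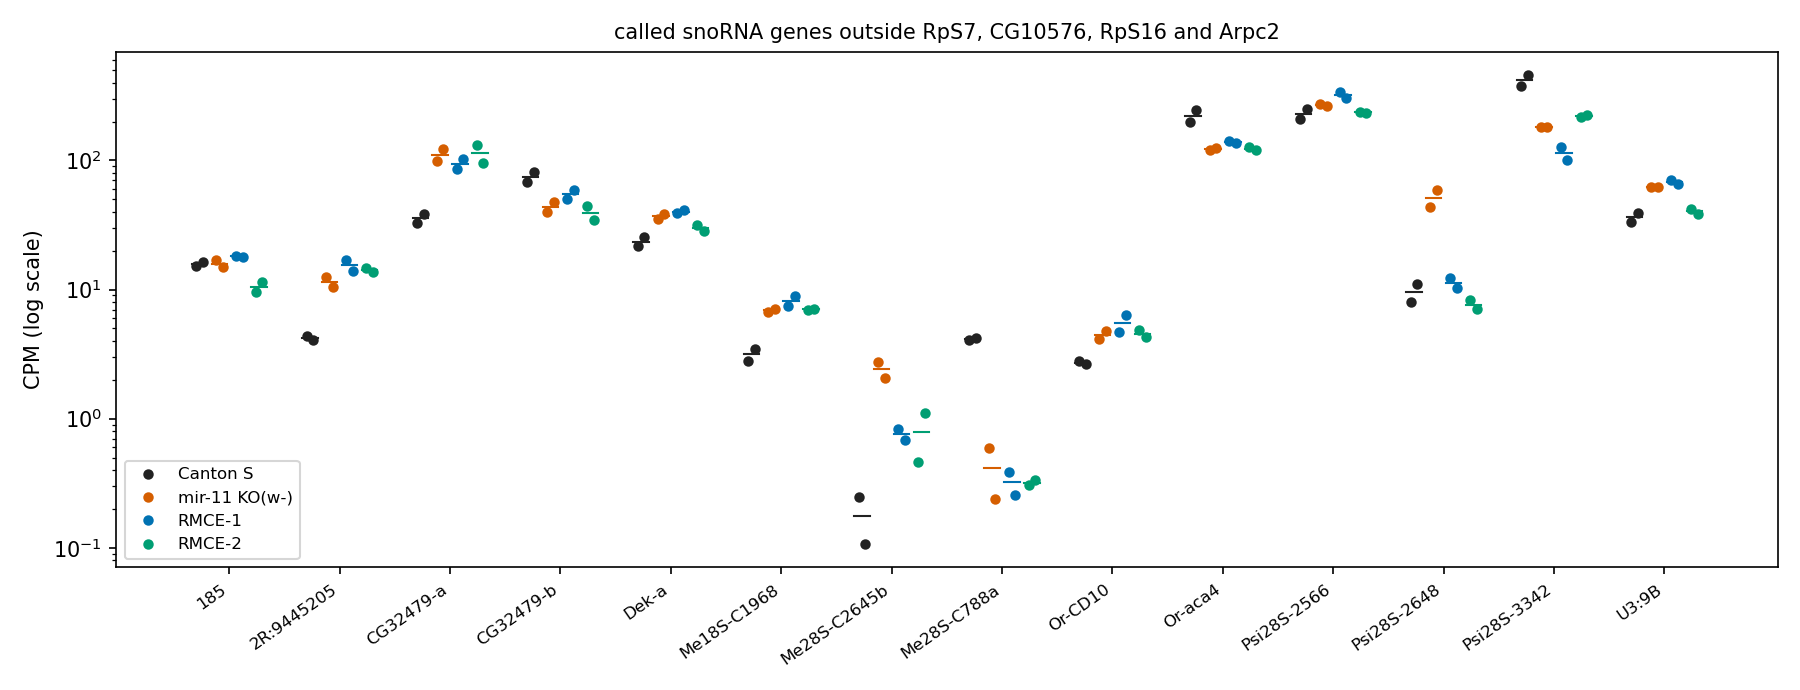
CPM (vertical axis, log scale) of the called snoRNA genes outside RpS7, CG10576, RpS16 and Arpc2; points are libraries, 2 per stock, and bars are stock means. Psi28S-2648 is high in KO at 51.3 CPM, Psi28S-3342 is highest in Canton S at 420 CPM, and U3:9B is higher in KO and RMCE-1 than in Canton S and RMCE-2.

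The remaining 5 called members were called in fewer stocks. snoRNA:Dek-a, within the gene of the chromatin protein Dek, had 441 and 473 reads in Canton S, 654 and 654 in the KO stock, 612 and 482 for RMCE-1 and 415 and 509 for RMCE-2. It rose by 0.65 (SE 0.11) in KO and 0.77 (SE 0.11) in RMCE-1 on the log2 scale (edgeR adjusted p = 0.0211 and 0.0118). Both calls were lost without Canton S replicate 1 (0.113 and 0.0703), that in KO also without either KO library (0.117 to 0.21). snoRNA:Me28S-C2645b, within the host RNA gene Uhg3, had 5 and 2 reads in Canton S, 51 and 35 in the KO stock, 13 and 8 for RMCE-1 and 6 and 20 for RMCE-2. It rose in KO by 3.69 (SE 0.59) (edgeR adjusted p = 0.0182), and the call ended on leaving out any 1 library of KO or Canton S (0.0673 to 0.17). The orphan snoRNA:Or-CD10, within RpL7A, rose in RMCE-1 by 1.01 (SE 0.23) (edgeR adjusted p = 0.0492), which held in 1 of 17 alternatives and was lost on leaving out any 1 library but RMCE-1 replicate 1 (0.08 to 0.173). snoRNA:Psi28S-2566 rose in RMCE-1 by 0.49 (SE 0.10) (edgeR adjusted p = 0.0349), lost on leaving out any 1 library but Canton S replicate 2 (0.0546 to 0.138). snoRNA:185 fell in RMCE-2 by 0.60 (SE 0.12) against Canton S and was lower than in RMCE-1 by 0.79 (SE 0.12) (edgeR adjusted p = 0.0473 and 0.0299). Both calls were lost on leaving out any 1 of the 8 libraries (0.0603 to 0.254).

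Of the host genes, whose introns release most snoRNAs, 2 of 57 tested were called in KO, 3 in RMCE-1 and 1 in RMCE-2 against Canton S, beside 4.75%, 6.06% and 3.6% of all genes. The median absolute log2 fold change of the tested hosts was 0.11, 0.11 and 0.08. A tested host on the same strand was annotated for 174 tested snoRNAs. Of the snoRNAs called in KO against Canton S 16 had such a host, and 1 of them lay in a called host. The median absolute log2 fold change of these snoRNAs was 1.13 and the largest among their hosts 0.70. In RMCE-1 and RMCE-2 the 12 called snoRNAs with a host had medians of 1.10 and 1.26, and their hosts reached 0.25 and 0.20. The snoRNAs were taken for being called and their hosts were not, so these values are no test of a difference between them. The called host of a called snoRNA was Uhg3, at 13.9 ± 0.0334 CPM in Canton S, 22.5 ± 0.124 in KO, 19.8 ± 2.13 in RMCE-1 and 14.8 ± 1.25 in RMCE-2 (edgeR adjusted p = 0.0159, 0.0417 and 0.681). Across the 174 snoRNAs Pearson's r with the host's log2 fold change was 0.16, 0.05 and 0.02, a description across genes that share hosts and libraries.

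**Figure D5:**
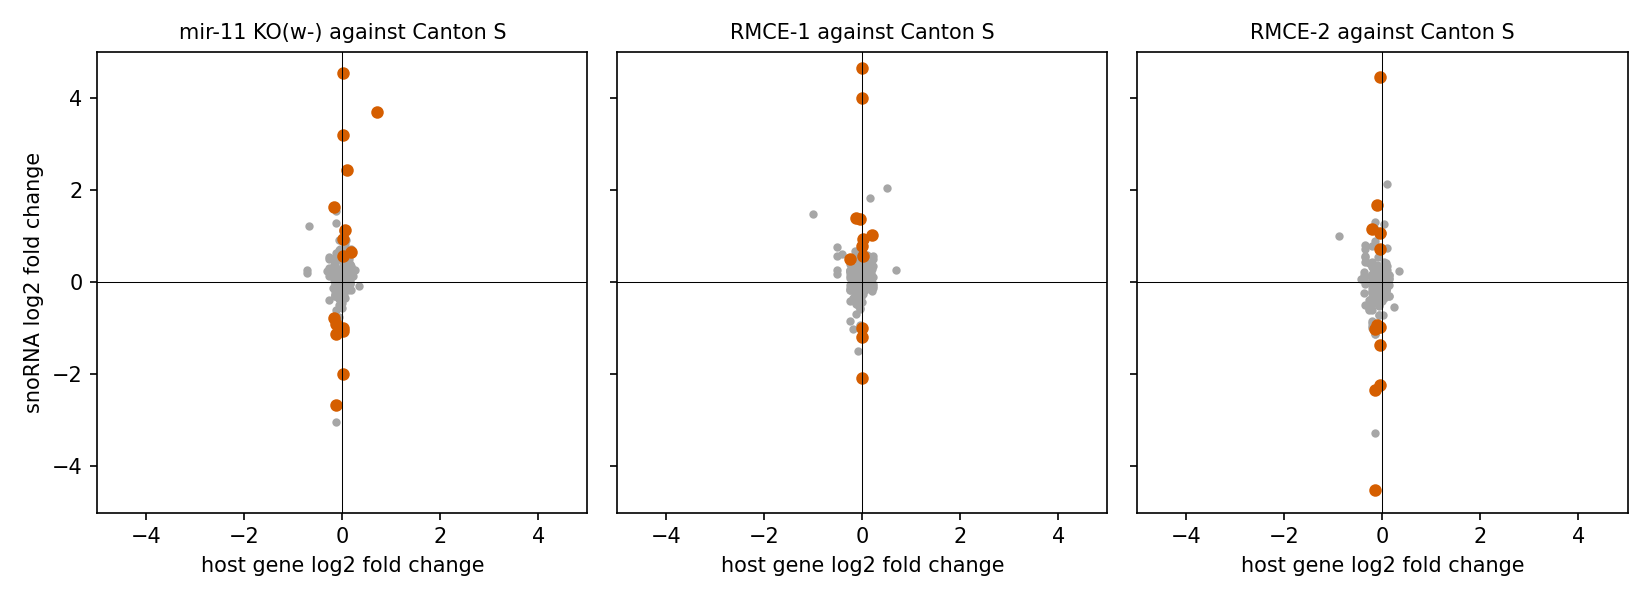
log2 fold change against Canton S of each snoRNA (vertical axis) and of its host gene on the same strand (horizontal axis) for 174 snoRNAs, one panel per stock, with called snoRNAs in orange and the rest in grey, on equal scales. Hosts of called snoRNAs lie within 0.70 of 0 in KO and within 0.25 and 0.20 in RMCE-1 and RMCE-2.

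Genes for proteins of snoRNA particles were tested in 3 lists. In RMCE-1 2 of 5 assembly genes were called higher, and in RMCE-2 1 of these and 1 of 3 box C/D core genes were called lower, beside 6.06% and 3.6% of all genes called in either direction. Of the box C/D core proteins Fib, Nop56 and nop5, Nop56 fell in RMCE-2 against Canton S, from 165 ± 2.69 to 136 ± 1.86 CPM, a log2 change of -0.28 (SE 0.06) with an edgeR adjusted p of 0.0484. The H/ACA core proteins Nop60B, NHP2, Nop10 and Gar1 were not called against Canton S, with the lowest edgeR adjusted p, 0.14, for Nop60B in RMCE-2 (217 ± 0.278 CPM in Canton S, 188 ± 2.83 in RMCE-2). Of the assembly factors pont, rept, spag, Pih1D1 and Nopp140, the nucleolar chaperone Nopp140 fell in RMCE-2, from 204 and 220 CPM in the Canton S libraries to 166 and 166 CPM (edgeR adjusted p = 0.0233). Pih1D1 and spag, of a complex that assists particle assembly, rose in RMCE-1, from 85.7 ± 1.69 to 116 ± 8.72 and from 27.8 ± 1.48 to 35.8 ± 0.431 CPM (edgeR adjusted p = 0.0182 and 0.0474). Among the 7 Uhg hosts, Uhg3 was called, as above.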

How the data were processed

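The deposited files hold raw read counts per FlyBase gene for each library, judged from their values, which are whole numbers with unequal totals. CASAVA 1.8.2, FastQC, TopHat2, featureCounts and Subread are named in the submitters' processing notes without role or order. Genome build, annotation, strand setting and the handling of reads with several matches are not stated there. Identifiers were matched to symbols (15001 of 15682) and to Ensembl 115 positions (15002).

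Tests used edgeR 4.0.16 in R 4.3.3 with TMM factors, filterByExpr and a robust quasi-likelihood fit of all libraries, with a mean per stock (4 residual degrees of freedom). Benjamini-Hochberg adjustment ran over 11068 genes, after 4614 were filtered out, and calls are adjusted p under 0.05. Biological variation (common BCV) was 20.6%. Another fit used counts summed over the copies of a guide. The fit per gene was tested on simulated data. Replicates of each stock differed by more than sampling noise (chi-square per degree of freedom 10 to 53.4). Values are mean ± SD of 2 libraries, which limits their precision, and counting intervals cover counting error only. A host is the gene whose span holds the snoRNA on the same strand, and lengths are exon lengths.

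Named members are, per comparison, up to 8 called rises and 8 called falls, copies of guides with a called copy, the 10 highest and the lowest per length, those near the count minimum, and hosts and particle proteins. Not every copy of Psi18S-525 and Psi18S-640 is named. hoip, Naf1 and Shq1 were not analysed here. Members and lists were chosen with earlier results of these data known. Alternatives were DESeq2 1.42.0, other scalings and filters, only the 4 libraries compared, a replicate block, and leaving libraries out.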

Additional observations from a re-analysis of the deposited data

How the results depend on the processing

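Of the calls, 4 of 21 in KO, 7 of 17 in RMCE-1 and 4 of 17 in RMCE-2 against Canton S held in all 17 alternatives, as did 1 of 5 between the RMCE stocks. Against KO 0 of 1 held for RMCE-1 and 0 of 3 for RMCE-2. For guides 1 of 6, 1 of 5 and 0 of 4 held against Canton S, 0 of 1 and 0 of 1 against KO, and 0 of 2 between the RMCE stocks. No called value changed sign in any of the alternatives. For RMCE-1 against Canton S, leaving out the pair that stood apart kept 8 of the 17 calls, and not all of the others are named here. Beyond those given above, it ended the calls of snoRNA:CG32479-a, snoRNA:Me18S-C1968, snoRNA:Dek-a and snoRNA:Psi28S-2566. It likewise ended those of the summed guides Psi28S-1837 and Me28S-C788. Leaving out each library in turn gave 4 to 19 snoRNA genes in KO, 9 to 16 in RMCE-1 and 5 to 15 in RMCE-2 against Canton S, 0 to 2 for RMCE-1 and 0 to 4 for RMCE-2 against KO, and 1 to 5 between the RMCE stocks. For guides the ranges were 1 to 6, 1 to 6, 0 to 4, 0 to 2, 0 to 2 and 0 to 3 in that order. Without the pair that stood apart, genes numbered 12, 8, 9, 0, 4 and 3, and guides 3, 1, 3, 0, 2 and 1. With only the 4 libraries compared, genes numbered 22, 10, 10, 1, 4 and 1, and guides 6, 3, 1, 1, 2 and 0. DESeq2 gave 2 genes and 2 guides for RMCE-1 and 3 guides for RMCE-2 against KO, where library totals alone and no filter gave 2 and 2 guides. The number of members tested varied between these runs. Shares of all genes called in them were not computed, so their counts cannot be read as particular to snoRNAs. Fits on fewer libraries have fewer residual degrees of freedom by construction, and a stock left with 1 library is assumed to vary like the others. For the other moves the cause was not tested.

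Replicate numbers are shared by the stocks with no stated pairing, and the correlation of replicate differences between stocks ran from -0.353 to 0.224. With the replicate block genes numbered 16, 14, 13, 0, 2 and 1, and guides 4, 4, 4, 0, 0 and 0. Members with few reads, many of them Me genes, could show only large changes.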

Other observations

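snoRNA:Me18S-A1806, a box C/D guide to 18S ribosomal RNA, did not pass the low-count filter and has no test. It was chosen after its values were seen and had 12 and 10 reads in Canton S, 1 and 3 in the KO stock, 1 and 0 for RMCE-1 and 1 and 0 for RMCE-2. Canton S held 15.4 times the level of RMCE-1 (exact 95% counting interval 2.49 to 637) and 17.5 times that of RMCE-2 (2.83 to 723), for counting error only.

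Also chosen after its values were seen, snoRNA:Psi18S-640f in Arpc2 had 10 and 12 reads in Canton S, 38 and 22 in the KO stock, 6 and 2 for RMCE-1 and 18 and 26 for RMCE-2. It was not called. Its higher libraries are those of KO and RMCE-2, which were lower in the first copies of that cluster.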
